A study of Homo sapiens with 9 samples.

Results

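The genes of fatty acid metabolism and lipid droplets were followed in LX2, a human cell line derived from the stellate cells of the liver and immortalised, after depletion of the transcriptional co-activators YAP (gene YAP1) or TAZ (gene WWTR1). The 38 genes were listed by symbol and all 38 were found among the 36601 gene IDs of the count tables. They were divided by role into 12 genes of synthesis, elongation and desaturation, 4 acyl-CoA synthetases, 6 genes of triglyceride synthesis and the droplet, 3 lipases, 6 genes of mitochondrial oxidation, 4 of uptake and binding and 3 nuclear receptors. The groups were siYAP (siRNA against YAP), siTAZ (siRNA against TAZ) and siNT (siRNA with no target), with 3 libraries in each. All of them were the same LX2 line, with no engineered change named, grown in serum and collected 7 days after transfection with 20 nM siRNA. Because a single immortalised line was used, the values describe LX2 cells and not stellate cells of a liver.

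Cells make fatty acids from citrate, through the enzymes that form and carboxylate acetyl-CoA and through fatty acid synthase, and then elongate and desaturate them. A fatty acid is activated to its CoA ester before it is built into triglyceride, which is stored in droplets coated by perilipins, or carried into mitochondria by the carnitine shuttle for beta-oxidation. Lipases release it again from the droplet. The SREBP factors drive many synthesis genes and the PPAR receptors, which bind fatty acids, drive many genes of oxidation and droplets. Quiescent stellate cells are known for droplets rich in retinyl esters, which they lose on activation.

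Each library held between 16498508 and 18752805 counts in genes, and 3 counts corresponded to 0.156 to 0.177 CPM, the unit in which counts are scaled to a common library size. YAP1 had 28.0, 25.7 and 25.2 CPM in siYAP libraries, against 211, 212 and 204 CPM in siNT libraries. WWTR1 had 8.60, 9.55 and 10.4 CPM in siTAZ libraries, against 66.1, 64.0 and 55.7 CPM in siNT libraries. Both targets were therefore low in the libraries labelled for them. Each knockdown also moved the other gene: YAP1 had 175, 161 and 173 CPM in siTAZ libraries, 1.23-fold below siNT (adjusted p = 2.42e-08), and WWTR1 had 76.2, 75.1 and 75.8 CPM in siYAP libraries, 1.22-fold above siNT (adjusted p = 6.31e-05). Of 16 stellate cell and fibroblast markers 14 were expressed well enough to be tested. LRAT was at 0 in all libraries, and DCN, DES and GFAP averaged below 1 CPM in each group. The summed level of this list lay at 4226 to 4297 CPM in siYAP, 9584 to 9748 CPM in siTAZ and 6429 to 6529 CPM in siNT libraries. COL1A1 was the largest part, averaging 2043 CPM in siYAP, 6249 CPM in siTAZ and 4164 CPM in siNT libraries. In siYAP 5 markers were called higher (COL1A2, LUM, TIMP1, RGS5 and ACTA2). Another 6 were lower there (PDGFRB, COL1A1, COL3A1, VIM, THY1 and HAND2). In siTAZ 4 were higher and 3 lower. Of 8 adipocyte markers 2 were testable, and ADIPOQ was at 0 in all libraries. The list summed to 4.37 to 5.63 CPM in siYAP, 5.30 to 6.86 CPM in siTAZ and 2.41 to 3.42 CPM in siNT libraries. PLIN4, a perilipin, was 2.73-fold higher in siYAP (adjusted p = 2.92e-05) and not called in siTAZ (log2 fold change 0.63, adjusted p = 0.126). LPL was called higher in siTAZ and not called in siYAP. Of 9 hepatocyte markers, APOC3 and TTR were at 0 in all libraries and only SERPINA1 was testable; the list summed to 13.0 to 16.1 CPM in siYAP, 0.973 to 2.13 CPM in siTAZ and 2.01 to 2.09 CPM in siNT libraries. Of 8 macrophage and leukocyte markers 5 were testable, with 3 higher and 1 lower in siYAP and 2 lower in siTAZ, and the list summed to 129 to 134 CPM in siYAP, 22.9 to 25.0 CPM in siTAZ and 34.5 to 37.8 CPM in siNT libraries. Most of that sum in siYAP and siNT libraries was CD68, a lysosomal protein, which was 5.15-fold higher in siYAP (adjusted p = 3.55e-39). In siTAZ libraries CD68 averaged 12.4 CPM and CD14 9.28 CPM. The leukocyte-defining PTPRC averaged 0.147 CPM in siYAP, 0.426 CPM in siTAZ and 2.60 CPM in siNT libraries. ITGAM, a myeloid integrin, was 11.1-fold higher in siYAP (adjusted p = 4.97e-11). Of 8 endothelial markers LYVE1 was at 0 in all libraries and 5 were testable, with 2 higher and 3 lower in siYAP and 3 lower in siTAZ. They summed to 12.8 to 16.7 CPM in siYAP, 7.84 to 9.11 CPM in siTAZ and 13.3 to 16.2 CPM in siNT libraries, and PECAM1 was 12.2-fold higher in siYAP (adjusted p = 1.24e-15) while CDH5 was 14.1-fold lower (adjusted p = 6.76e-16). Of 6 cholangiocyte markers 3 were testable, with 1 higher and 1 lower in siYAP and 1 higher in siTAZ, and the list, mostly SOX9, summed to 82.6 to 85.4 CPM in siYAP, 75.8 to 78.2 CPM in siTAZ and 55.3 to 58.5 CPM in siNT libraries. The part of these lists in the lipid gene results was not tested. In such bulk samples, fewer cells of a kind and less RNA per cell cannot be told apart.

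In siYAP cells the synthesis genes FASN and SCD were lower, and all 3 lipases were lower. The droplet genes PLIN2 and DGAT2, the acyl-CoA synthetase ACSL5 and the receptor PPARA were each more than 2-fold higher (at least 2.25-fold). At low counts, the droplet gene PNPLA3 was 3.14-fold lower, the receptor PPARG 3.61-fold lower and the uptake gene CD36 3.75-fold higher. Of the 6 storage genes 2 were called higher and 2 lower. With 37 of the 38 genes tested, 11 were called higher and 16 lower in siYAP against siNT cells at an adjusted p below 0.05 (edgeR quasi-likelihood, Benjamini-Hochberg over the 15560 genes tested). That was 73.0% of those tested, where the same comparison called 67.1% of all genes tested, 33.8% higher and 33.4% lower. Their median log2 fold change was -0.10, beside 0.02 for all genes tested. At a change of at least 1.5-fold 11 of them were called, where the rule called 35.3% of all genes. The share called was thus near that of the transcriptome, and what follows is about which members moved, in which direction and how far.

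In siTAZ cells the changes were smaller. SCD was 1.65-fold lower and ACSL5 2.17-fold higher, and 6 genes were called higher and 13 lower, which was 51.4% of the 37 tested. The same comparison called 34.6% of all genes tested, 16.4% higher and 18.2% lower. The median was -0.06, beside 0.01 for all genes. Only 3 members (SCD, ACSL5 and PNPLA3) passed with a change of at least 1.5-fold, where 7.46% of all genes did. Both knockdowns were set against the same 3 siNT libraries, so the side-by-side values below are not independent of each other.

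**Figure D1:**
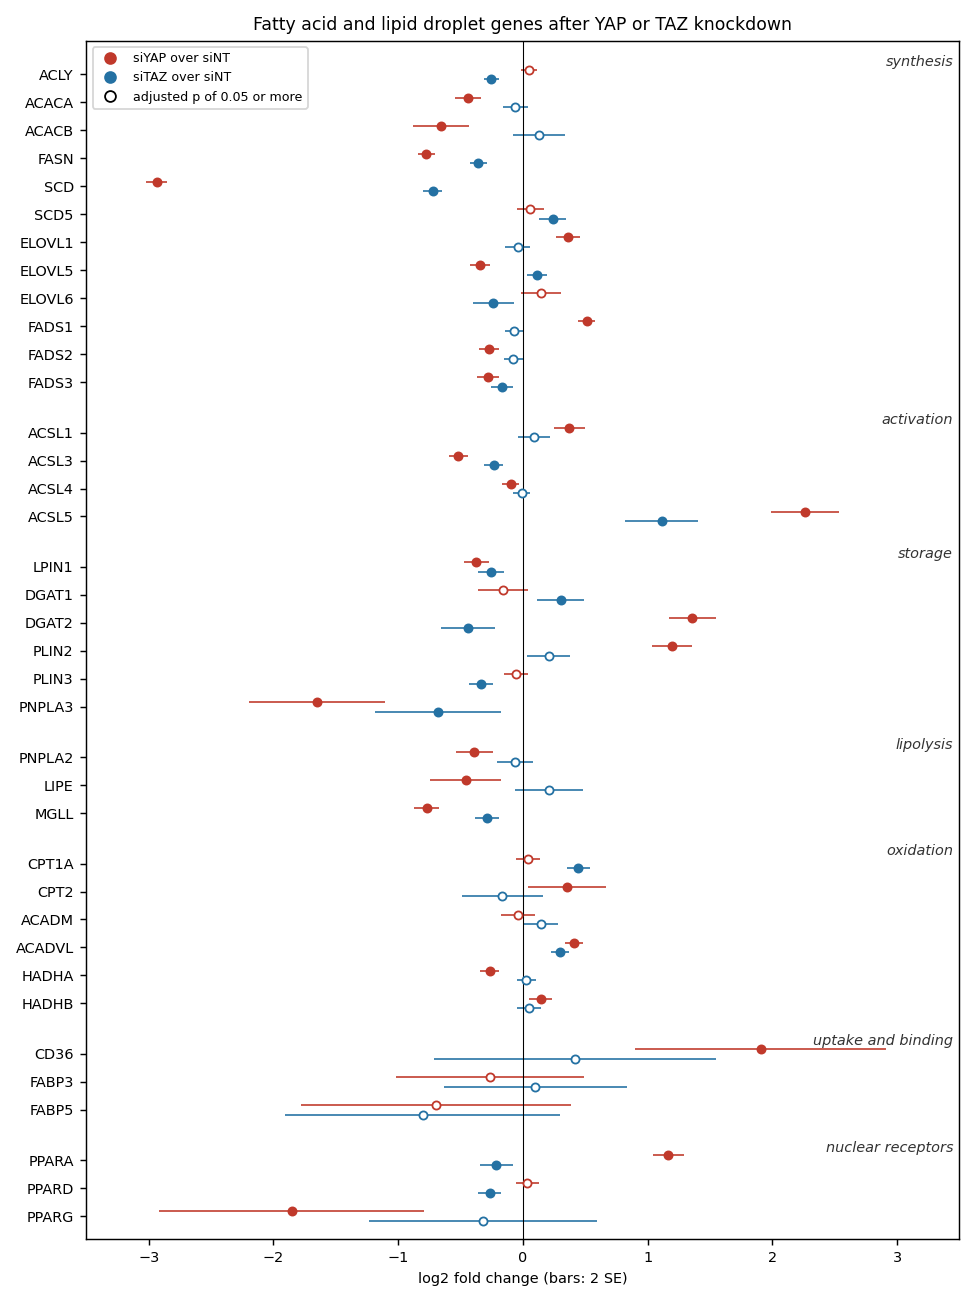
Log2 fold change (x axis) of the 37 tested genes by role (y axis), siYAP over siNT in red and siTAZ over siNT in blue, bars 2 SE, open symbols for an adjusted p of 0.05 or more. SCD lies farthest to the left at -2.94 in siYAP and ACSL5 farthest to the right at 2.26, and in siTAZ the same genes lie at -0.72 and 1.11.

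Reading the 2 sets of calls together, 7 genes were lower in both knockdowns (FASN, SCD, FADS3, ACSL3, LPIN1, PNPLA3 and MGLL) and 2 were higher in both (ACSL5 and ACADVL). DGAT2 and PPARA were higher in siYAP and lower in siTAZ, and ELOVL5 was lower in siYAP and higher in siTAZ. A further 7 were higher and 8 lower in siYAP without a call in siTAZ, and 3 were higher and 4 lower in siTAZ without a call in siYAP. A call in one comparison alone does not show that the knockdowns differ, so the direct comparison of siTAZ with siYAP is given below with each member tested. For the other pathway genes it is given for some only, and where it is absent no difference between the knockdowns is claimed. ACADM, FABP3 and FABP5 were called in neither.

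The promoters of SCD, ACSL5, PLIN2 and PPARA are printed because these are the members above 10 CPM in at least 1 group that changed more than 2-fold in siYAP and have an entry in the promoter table used. Each run reads 5′ to 3′ on the gene's own strand from 250 bases before to 20 bases after the RefSeq start (GRCh38.p14), with motif matches in capitals. The windows are chr10:100346983-100347252 (plus strand) for SCD, chr10:112375018-112375287 (plus strand) for ACSL5, chr9:19127473-19127742 (minus strand) for PLIN2 and chr22:46150276-46150545 (plus strand) for PPARA.
SCD: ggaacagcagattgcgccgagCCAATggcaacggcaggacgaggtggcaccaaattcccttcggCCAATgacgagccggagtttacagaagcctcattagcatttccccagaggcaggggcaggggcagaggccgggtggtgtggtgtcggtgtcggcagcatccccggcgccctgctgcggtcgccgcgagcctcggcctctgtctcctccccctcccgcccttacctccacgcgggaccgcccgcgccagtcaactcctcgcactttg
ACSL5: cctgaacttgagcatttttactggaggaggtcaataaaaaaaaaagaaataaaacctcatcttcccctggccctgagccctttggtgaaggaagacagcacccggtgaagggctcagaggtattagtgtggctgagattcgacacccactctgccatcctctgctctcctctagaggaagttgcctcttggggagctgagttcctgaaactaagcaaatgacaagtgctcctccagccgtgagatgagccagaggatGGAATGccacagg
PLIN2: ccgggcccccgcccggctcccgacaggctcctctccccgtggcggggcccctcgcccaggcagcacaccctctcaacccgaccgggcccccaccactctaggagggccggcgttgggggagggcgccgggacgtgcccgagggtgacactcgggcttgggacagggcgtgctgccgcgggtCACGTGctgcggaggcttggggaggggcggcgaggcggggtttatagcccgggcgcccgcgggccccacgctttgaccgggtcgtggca
PPARA: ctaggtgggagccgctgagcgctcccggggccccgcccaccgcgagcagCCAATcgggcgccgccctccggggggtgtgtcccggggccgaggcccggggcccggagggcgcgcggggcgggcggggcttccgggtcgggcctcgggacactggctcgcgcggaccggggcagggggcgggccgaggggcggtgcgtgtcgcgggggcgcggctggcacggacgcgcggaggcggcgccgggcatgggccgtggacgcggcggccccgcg
The capitals mark CCAAT, the word read by NF-Y, with first bases at -229 and -186 from the SCD start and at -201 from the PPARA start. In ACSL5 they mark GGAATG, the word of the TEAD factors through which YAP and TAZ reach DNA, at position 8 after the start. In PLIN2 they mark the E-box CACGTG at -69. No matches overlapped in these 4 runs.

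Both strands of the full 300-base windows (to 50 bases after the start) were searched for 4 words in the 31 members with an entry and in all 27305 promoters of the RefSeq table. The TEAD word GGAATG was in 3 of 31 members (ACSL3, ACSL5 and CD36) and in 14.05% of all promoters. The CCAAT word was in 11 of 31 members and in 35.7% of all promoters. CACGTG was in 2 members (ELOVL5 and PLIN2) and 7.43% of all promoters. The SREBP word TCACNCCAC was in PNPLA2 and 1.15% of all promoters. A match is a description of these letters, and a window without one says nothing about the factor. FASN, PNPLA3, DGAT1, DGAT2, MGLL, FABP4 and FABP5 had no entry.

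Of the synthesis genes, SCD, FASN and FADS3 were called lower in both knockdowns, and the others were divided. In siYAP cells 2 of the 12 were called higher and 7 lower, with a median log2 fold change of -0.28. In siTAZ cells 2 were higher and 5 lower, with a median of -0.07. The summed level of the 12 genes was 2135 ± 37.4 CPM in siYAP, 2316 ± 15.3 CPM in siTAZ and 2719 ± 39.1 CPM in siNT libraries (SD, n = 3 each), and no library of either knockdown reached the siNT range. Without SCD and FASN, a choice made after the values were seen, the other 10 summed to 1840 ± 32.0 CPM in siYAP, 1713 ± 13.0 CPM in siTAZ and 1837 ± 28.4 CPM in siNT libraries (SD, n = 3 each). The siYAP and siNT ranges then overlapped, while all siTAZ libraries still lay below both. Sums over genes are given here as values without a test, because the genes were chosen with earlier results known.

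The largest change of all members was in SCD, the stearoyl-CoA desaturase that makes oleate and palmitoleate (chr10:100347124-100364834, plus strand, GRCh38, GENCODE 29). SCD had 64.4, 67.2 and 57.5 CPM in siYAP libraries and 295, 294 and 290.4 CPM in siTAZ libraries, against 490.5, 496 and 463 CPM in siNT libraries. The groups were ordered siYAP, siTAZ, siNT with wide gaps and no overlap. SCD was 7.66-fold lower in siYAP (log2 fold change -2.94 ± 0.04 SE, adjusted p = 1.7e-55) and 1.65-fold lower in siTAZ (-0.72 ± 0.04, adjusted p = 6.92e-25). Set directly against siYAP, siTAZ was 4.64-fold higher (2.21 ± 0.04, adjusted p = 8.62e-49). SCD5, the second human stearoyl-CoA desaturase, did not share this: it was not called in siYAP (0.06, adjusted p = 0.311) and was 1.18-fold higher in siTAZ (adjusted p = 0.000182), and siTAZ stood 1.13-fold above siYAP (adjusted p = 0.00224). Per kilobase of exon, SCD stood at 0.624 ± 0.0541 times the SCD5 level in siYAP, 2.57 ± 0.126 times in siTAZ and 5.00 ± 0.345 times in siNT libraries (SD, n = 3 each), so SCD5 was the more abundant desaturase in siYAP libraries and SCD in the others.

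FASN, which builds palmitate, had 228, 235 and 235 CPM in siYAP libraries and 312, 307 and 312 CPM in siTAZ libraries, against 402, 390.4 and 401 CPM in siNT libraries. These also fell into 3 separate bands in the order siYAP, siTAZ, siNT. FASN was 1.71-fold lower in siYAP (-0.78 ± 0.03, adjusted p = 5.74e-30) and 1.28-fold lower in siTAZ (-0.36 ± 0.03, adjusted p = 7.15e-14), and siTAZ stood 1.34-fold above siYAP (adjusted p = 5.76e-17).

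The enzymes upstream of FASN differed between the knockdowns. ACLY cleaves citrate to acetyl-CoA and was the most abundant synthesis gene per kilobase of exon in every group. ACLY had 610.3, 631 and 634 CPM in siYAP libraries and 513, 499.7 and 509 CPM in siTAZ libraries, against 613, 603 and 598 CPM in siNT libraries. The siYAP and siNT libraries overlapped, and the siTAZ libraries lay below both. ACLY was 1.19-fold lower in siTAZ (adjusted p = 6e-10) and not called in siYAP (0.05, adjusted p = 0.168), and siTAZ stood 1.23-fold below siYAP (adjusted p = 3.68e-13). The acetyl-CoA carboxylases, which make malonyl-CoA, were lower in siYAP and not called in siTAZ. ACACA was 1.36-fold lower in siYAP (adjusted p = 4.39e-10) and was not called in siTAZ (-0.06, adjusted p = 0.399), and siTAZ stood 1.30-fold above siYAP (adjusted p = 1.63e-08). ACACB, whose product at the mitochondrion restrains the carnitine shuttle, had 10.2, 12.5 and 12.9 CPM in siYAP libraries and 19.1, 22.9 and 19.3 CPM in siTAZ libraries, against 18.8, 18.0 and 19.2 CPM in siNT libraries. Only the siYAP libraries stood apart, below the rest. ACACB was 1.57-fold lower in siYAP (adjusted p = 5.46e-07), not called in siTAZ (0.13, adjusted p = 0.371), and 1.72-fold higher in siTAZ than in siYAP (adjusted p = 5.31e-09).

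Among the elongases and the fatty acid desaturases of polyunsaturated chains, members of one family moved in opposite directions. FADS1, the delta-5 desaturase, had 353, 366 and 357 CPM in siYAP libraries and 243, 239.9 and 234 CPM in siTAZ libraries, against 255, 252 and 247 CPM in siNT libraries. All siYAP libraries lay above all others, and the siTAZ libraries lay just below the siNT range. FADS1 was 1.43-fold higher in siYAP (0.51 ± 0.03, adjusted p = 1.08e-20), not called in siTAZ (-0.07, adjusted p = 0.102), and lower in siTAZ than in siYAP by a log2 fold change of -0.59 ± 0.03 (adjusted p = 2.16e-23). Its neighbour FADS2, the delta-6 desaturase, was 1.21-fold lower in siYAP (adjusted p = 4.76e-09) and not called in siTAZ (-0.08, adjusted p = 0.114), and siTAZ stood 1.15-fold above siYAP (adjusted p = 8.32e-06). The level of FADS1 per kilobase of exon was 1.79 ± 0.0598 times that of FADS2 in siYAP, 1.04 ± 0.0580 times in siTAZ and 1.04 ± 0.0232 times in siNT libraries (SD, n = 3 each). FADS1 and FADS2 share 490 exonic bases on opposite strands, and the sources do not say whether reads were counted by strand. FADS3 was lower in both knockdowns, 1.22-fold in siYAP (adjusted p = 1.41e-07) and 1.12-fold in siTAZ (adjusted p = 0.00195); without the third siNT library the siTAZ call was lost (adjusted p = 0.0765). The direct difference was 1.08-fold, higher in siTAZ than in siYAP (adjusted p = 0.0214), a call lost without the first siYAP library (0.133) or the third siTAZ library (0.0586).

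ELOVL1, which elongates saturated very-long chains, was 1.28-fold higher in siYAP (adjusted p = 1.87e-09) and not called in siTAZ (-0.04, adjusted p = 0.55), and siTAZ stood 1.32-fold below siYAP (adjusted p = 6.58e-11). ELOVL5, which elongates polyunsaturated chains, had 152, 149 and 137 CPM in siYAP libraries and 206, 200.5 and 197 CPM in siTAZ libraries, against 185, 185 and 187 CPM in siNT libraries. The siNT libraries lay between the knockdowns with no overlap on either side. ELOVL5 was 1.27-fold lower in siYAP (-0.34, adjusted p = 2.65e-11) and 1.08-fold higher in siTAZ (0.12, adjusted p = 0.0185), and siTAZ exceeded siYAP 1.38-fold (adjusted p = 6.28e-16). The siTAZ call was lost without the first siNT library (adjusted p = 0.0627), the second siNT library (0.0647) or the first siTAZ library (0.0963). ELOVL6, which elongates palmitate to stearate, was called lower in siTAZ (1.18-fold, adjusted p = 0.0184), a call also lost without the first siNT library (adjusted p = 0.0623), the second siNT library (0.0921) or the first siTAZ library (0.0832). For ELOVL6 siTAZ stood 1.30-fold below siYAP (adjusted p = 3.26e-05).

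**Figure D2:**
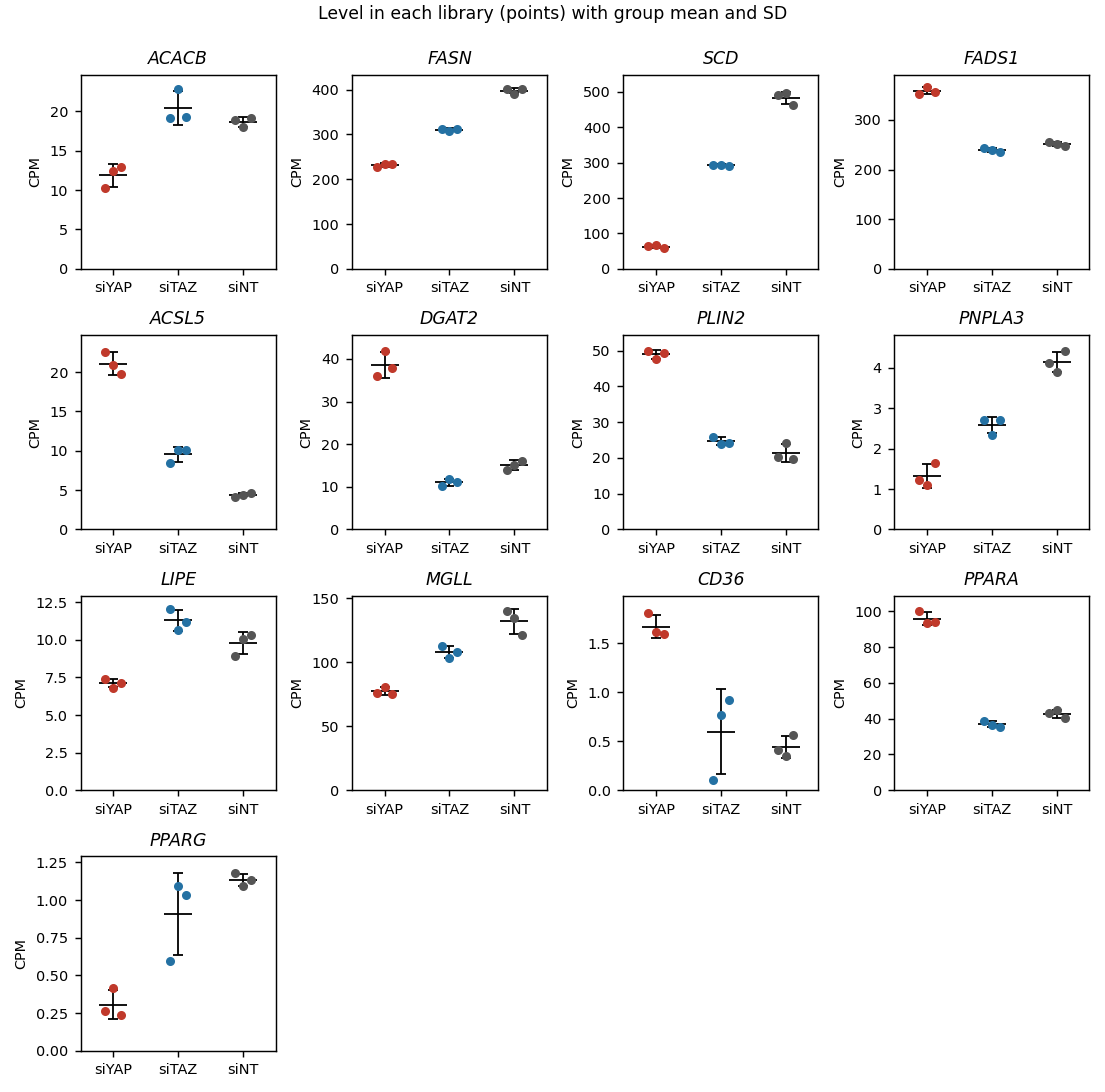
Level in CPM (y axis, from 0) in each library (points) with group mean and SD, n = 3, for siYAP, siTAZ and siNT (x axis), for the 13 genes called with a change of at least 1.5-fold in at least 1 of the 3 comparisons. SCD stays at or below 67.2 CPM in siYAP libraries and at or above 463 CPM in siNT libraries, and the siYAP libraries stand apart for FADS1, ACSL5, DGAT2, PLIN2, PPARA and CD36 above and for SCD, FASN, ACACB, PNPLA3, LIPE, MGLL and PPARG below.

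The 4 long-chain acyl-CoA synthetases, which activate fatty acids, were each called in siYAP, in both directions. ACSL5, an isoform found on mitochondria and the endoplasmic reticulum (chr10:112374018-112428380, plus strand), had 22.6, 20.9 and 19.8 CPM in siYAP libraries and 8.49, 10.0 and 10.1 CPM in siTAZ libraries, against 4.18, 4.43 and 4.58 CPM in siNT libraries. No groups overlapped, and the order was the reverse of that of SCD. ACSL5 was 4.79-fold higher in siYAP (2.26 ± 0.14, adjusted p = 2.57e-23) and 2.17-fold higher in siTAZ (1.11 ± 0.15, adjusted p = 3.48e-09), with siTAZ 2.21-fold below siYAP (adjusted p = 7e-13). It remained the least abundant of the 4 per kilobase of exon, at 4.98 ± 0.334 CPM per kilobase in siYAP, 2.25 ± 0.214 in siTAZ and 1.04 ± 0.0476 in siNT libraries (SD, n = 3 each). ACSL5 shares 368 exonic bases with genes on the opposite strand.

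ACSL4, which prefers arachidonate and was the most abundant synthetase per kilobase of exon, had 328, 331 and 311 CPM in siYAP libraries and 342, 338 and 349 CPM in siTAZ libraries, against 340.0, 347 and 351 CPM in siNT libraries. The siYAP libraries lay slightly below the others, and the siTAZ and siNT libraries overlapped. ACSL4 was 1.07-fold lower in siYAP (adjusted p = 0.0107), a call lost without the third siYAP library (adjusted p = 0.103), and not called in siTAZ. It was 1.06-fold higher in siTAZ than in siYAP (adjusted p = 0.0241), which was also lost without the third siYAP library (0.1697). ACSL3, an isoform of nascent droplets, was 1.43-fold lower in siYAP (adjusted p = 7.03e-19) and 1.18-fold lower in siTAZ (adjusted p = 8.6e-07), and siTAZ stood 1.22-fold above siYAP (adjusted p = 2.8e-09). ACSL1 was 1.29-fold higher in siYAP (adjusted p = 4.01e-07) and not called in siTAZ (0.09, adjusted p = 0.283), and siTAZ stood 1.21-fold below siYAP (adjusted p = 6.43e-05).

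Storage genes did not move as a group. In siYAP cells 2 of 6 were called higher and 2 lower (median log2 fold change -0.11, and -0.153 to -0.0516 with 1 library left out), and in siTAZ cells 1 was higher and 4 lower (median -0.30). Their summed level was 296 ± 8.40 CPM in siYAP, 241 ± 6.76 CPM in siTAZ and 279 ± 8.85 CPM in siNT libraries (SD, n = 3 each). The siTAZ libraries lay below all others, while the siYAP and siNT ranges overlapped.

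The diacylglycerol acyltransferases, which catalyse the last step of triglyceride synthesis, went apart. DGAT2 (chr11:75759512-75801535, plus strand) had 36.1, 41.8 and 37.8 CPM in siYAP libraries and 10.3, 11.9 and 11.1 CPM in siTAZ libraries, against 13.8, 15.2 and 16.1 CPM in siNT libraries. The siYAP libraries were the highest and the siTAZ libraries the lowest, with the siNT libraries between and no overlap. DGAT2 was 2.56-fold higher in siYAP (1.36 ± 0.09, adjusted p = 3.17e-20) and 1.36-fold lower in siTAZ (-0.44 ± 0.11, adjusted p = 0.000709), and siTAZ stood 3.48-fold below siYAP (-1.80 ± 0.10, adjusted p = 2.78e-25). DGAT1 was not called in siYAP (-0.16, adjusted p = 0.147) and was 1.23-fold higher in siTAZ (adjusted p = 0.00942), a call lost without the third siNT library (adjusted p = 0.0709). DGAT1 was 1.38-fold higher in siTAZ than in siYAP (adjusted p = 2.57e-05). Per kilobase of exon DGAT2 stood at 1.10 ± 0.118 times DGAT1 in siYAP, 0.229 ± 0.0227 times in siTAZ and 0.385 ± 0.0548 times in siNT libraries (SD, n = 3 each). DGAT2 shares 540 exonic bases with genes on the opposite strand. DGAT1 shares 444 with a gene on its own strand and 139 with HSF1 on the opposite strand. What these overlaps do to the ratio was not tested.

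PLIN2, the droplet coat protein of most non-adipose cells (chr9:19108375-19149290, minus strand), had 49.96, 47.6 and 49.3 CPM in siYAP libraries and 26.0, 23.8 and 24.3 CPM in siTAZ libraries, against 20.3, 24.1 and 19.7 CPM in siNT libraries. The siYAP libraries were far above the rest, and the siTAZ and siNT ranges overlapped through the second siNT library. PLIN2 was 2.29-fold higher in siYAP (1.195 ± 0.08, adjusted p = 7.96e-21) and just missed the threshold in siTAZ (0.21 ± 0.09, adjusted p = 0.053), where it passed without the second siNT library (0.30, adjusted p = 0.0105). For PLIN2 siTAZ stood 1.98-fold below siYAP (adjusted p = 1.59e-17). PLIN3, an exchangeable coat protein and the most abundant storage gene per kilobase of exon, had 97.3, 107 and 103 CPM in siYAP libraries and 85.9, 82.4 and 85.5 CPM in siTAZ libraries, against 109, 107 and 105 CPM in siNT libraries. Only the siTAZ libraries stood apart, below the others. PLIN3 was 1.26-fold lower in siTAZ (adjusted p = 5.41e-08) and not called in siYAP (-0.06, adjusted p = 0.285), and siTAZ stood 1.21-fold below siYAP (adjusted p = 1.12e-06). The level of PLIN2 per kilobase was 0.265 ± 0.0193 times that of PLIN3 in siYAP, 0.161 ± 0.00520 times in siTAZ and 0.111 ± 0.0125 times in siNT libraries (SD, n = 3 each), with no overlap between groups. PLIN3 shares 502 of its 2813 exonic bases with a gene on the opposite strand, and the effect on this ratio was not tested.

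PNPLA3, a droplet protein with hydrolase and transacylase activity, was lower in both knockdowns at low counts (21 to 28 in siYAP, 43 to 50 in siTAZ and 68 to 78 in siNT libraries). PNPLA3 had 1.22, 1.10 and 1.65 CPM in siYAP libraries and 2.70, 2.35 and 2.71 CPM in siTAZ libraries, against 4.12, 3.91 and 4.41 CPM in siNT libraries. The groups did not overlap. It was 3.14-fold lower in siYAP (-1.65 ± 0.27, adjusted p = 3.16e-07) and 1.60-fold lower in siTAZ (-0.68 ± 0.25, adjusted p = 0.0285), the second call being lost without the first siNT library (adjusted p = 0.0664), the third siNT library (0.0905) or the second siTAZ library (0.0863). PNPLA3 was 1.96-fold higher in siTAZ than in siYAP (adjusted p = 0.00233). LPIN1, the phosphatidate phosphatase that makes diacylglycerol, was 1.29-fold lower in siYAP (adjusted p = 2.73e-09) and 1.19-fold lower in siTAZ (adjusted p = 3.53e-05), with siTAZ 1.08-fold above siYAP (adjusted p = 0.0434). The call between the knockdowns was lost without the third siYAP library (adjusted p = 0.126), the first siTAZ library (0.0627) or the third siTAZ library (0.168).

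The 3 lipases that strip triglyceride to free fatty acid one chain after the other were all lower in siYAP (median log2 fold change -0.46), and 1 of them was lower in siTAZ. PNPLA2, the adipose triglyceride lipase that takes the first chain, had 30.3, 38.1 and 35.3 CPM in siYAP libraries and 39.4, 45.4 and 45.1 CPM in siTAZ libraries, against 45.3, 46.5 and 44.0 CPM in siNT libraries. The siYAP libraries were the lowest, and the siTAZ range overlapped the siNT range. PNPLA2 was 1.31-fold lower in siYAP (adjusted p = 6.49e-06) and not called in siTAZ (-0.06, adjusted p = 0.548), and siTAZ stood 1.25-fold above siYAP (adjusted p = 0.000125). It shares 401 exonic bases with a gene on the opposite strand.

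LIPE, the hormone-sensitive lipase, had 7.39, 6.83 and 7.15 CPM in siYAP libraries and 12.1, 10.7 and 11.2 CPM in siTAZ libraries, against 8.95, 10.1 and 10.3 CPM in siNT libraries. The siNT libraries lay between the knockdowns without overlap. LIPE was 1.37-fold lower in siYAP (adjusted p = 0.00351), not called in siTAZ (0.21, adjusted p = 0.243) and 1.59-fold higher in siTAZ than in siYAP (adjusted p = 2.66e-05). It shares 500 exonic bases with LIPE-AS1 on the opposite strand. MGLL, which hydrolyses the remaining monoglyceride, had 75.6, 80.8 and 75.5 CPM in siYAP libraries and 113, 104 and 108 CPM in siTAZ libraries, against 139.8, 135 and 121 CPM in siNT libraries. The 3 groups were separate, in the order siYAP, siTAZ, siNT. MGLL was 1.71-fold lower in siYAP (-0.77 ± 0.05, adjusted p = 1.47e-21) and 1.22-fold lower in siTAZ (adjusted p = 2.25e-06), with siTAZ 1.40-fold above siYAP (adjusted p = 5.36e-13). The summed level of the 3 lipases was 119 ± 6.27 CPM in siYAP, 163 ± 2.62 CPM in siTAZ and 187 ± 9.78 CPM in siNT libraries (SD, n = 3 each).

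The oxidation genes changed less, and none by as much as 1.5-fold in any comparison. In siYAP 3 of 6 were called higher and 1 lower (median 0.09), and in siTAZ 2 were higher and none lower (median 0.10). Their summed level was 758 ± 4.93 CPM in siYAP, 807 ± 9.53 CPM in siTAZ and 710.3 ± 8.87 CPM in siNT libraries (SD, n = 3 each). Both knockdowns lay above the siNT range. In siYAP that rested on ACADVL: the other 5 genes, a choice made after the values were seen, summed to 466 ± 9.36 CPM in siYAP, 536 ± 10.3 CPM in siTAZ and 490.0 ± 9.70 CPM in siNT libraries (SD, n = 3 each), with all siYAP libraries below the siNT range and all siTAZ libraries above it.

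CPT1A, the carnitine acyltransferase that admits long chains to the mitochondrion, had 99.2, 100.3 and 95.2 CPM in siYAP libraries and 129.9, 129.8 and 131 CPM in siTAZ libraries, against 91.7, 101 and 93.9 CPM in siNT libraries. Only the siTAZ libraries stood apart. CPT1A was 1.36-fold higher in siTAZ (0.45 ± 0.05, adjusted p = 3.09e-12), not called in siYAP (0.04, adjusted p = 0.46), and 1.32-fold higher in siTAZ than in siYAP (adjusted p = 1.18e-11). ACADVL, the very-long-chain acyl-CoA dehydrogenase of the first oxidation step, had 287, 289.8 and 300.4 CPM in siYAP libraries and 277, 268 and 266 CPM in siTAZ libraries, against 217, 217 and 227 CPM in siNT libraries. Every knockdown library exceeded every siNT library. ACADVL was 1.33-fold higher in siYAP (adjusted p = 7.79e-16) and 1.23-fold higher in siTAZ (adjusted p = 4.55e-10), with siTAZ 1.08-fold below siYAP (adjusted p = 0.0045).

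HADHA and HADHB are the subunits of the mitochondrial trifunctional protein, and in siYAP they were called in opposite directions. HADHA was lower (log2 fold change -0.27 ± 0.04, adjusted p = 4.21e-09), and HADHB was 1.10-fold higher (adjusted p = 0.00559), a call lost without the first siNT library (adjusted p = 0.128). In siTAZ neither was called (0.03 and 0.05 on the log2 scale). Between the knockdowns HADHA was 1.23-fold higher in siTAZ than in siYAP (adjusted p = 2.44e-10) and HADHB was not called (-0.09, adjusted p = 0.0673). CPT2, which re-forms the acyl-CoA inside the mitochondrion, was called higher in siYAP (1.28-fold, adjusted p = 0.0396) and not in siTAZ (-0.16, adjusted p = 0.475), and siTAZ stood 1.43-fold below siYAP (adjusted p = 0.00297). The siYAP call against siNT was lost without the first siNT library (adjusted p = 0.0703), the third siNT library (0.169), the first siYAP library (0.0949) or the third siYAP library (0.0836), and CPT2 shares 1250 exonic bases with genes on the opposite strand. ACADM, the medium-chain dehydrogenase, was not called in siYAP (-0.04, adjusted p = 0.63) or siTAZ (0.14, adjusted p = 0.102), and was 1.13-fold higher in siTAZ than in siYAP (adjusted p = 0.0169). That call was lost without the third siYAP library (adjusted p = 0.1004) or the second siTAZ library (0.0832).

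**Figure D3:**
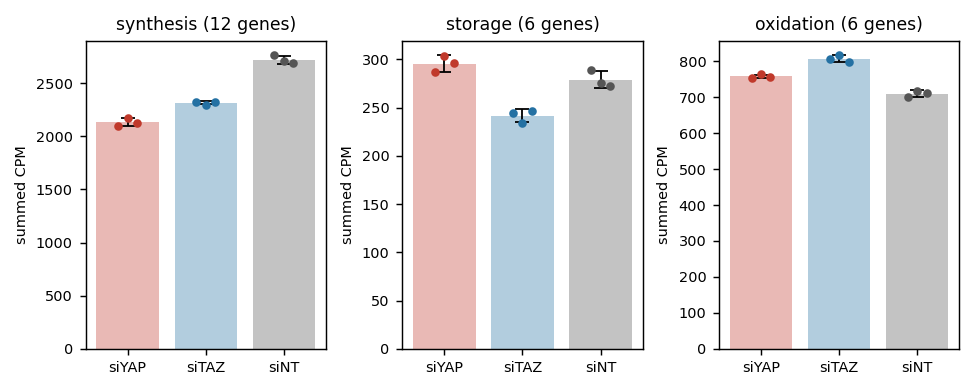
Summed level in CPM (y axis, from 0) of the 12 synthesis, 6 storage and 6 oxidation genes for siYAP, siTAZ and siNT (x axis); bars are group means with SD, points the 3 libraries. Synthesis averages 2135 CPM in siYAP, 2316 CPM in siTAZ and 2719 CPM in siNT, oxidation 758, 807 and 710.3 CPM in the same order, and storage is lowest in siTAZ at 241 CPM. Without SCD and FASN synthesis averages 1840, 1713 and 1837 CPM in the same order, and without ACADVL oxidation averages 466, 536 and 490.0 CPM.

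Genes of uptake and intracellular binding were barely expressed. CD36, a fatty acid translocase at the cell surface, had 1.81, 1.62 and 1.59 CPM in siYAP libraries and 0.108, 0.764 and 0.922 CPM in siTAZ libraries, against 0.412, 0.345 and 0.566 CPM in siNT libraries. The siYAP libraries were above all others, and the siTAZ libraries spread across the whole siNT range, with counts between 2 and 16. CD36 was 3.75-fold higher in siYAP (1.91 ± 0.50, adjusted p = 0.000671) and not called in siTAZ (0.42 ± 0.57, adjusted p = 0.615). The call in siTAZ against siYAP (2.80-fold lower, adjusted p = 0.00512) was lost without the first siTAZ library (adjusted p = 0.0769), where the log2 fold change was -0.98 in place of -1.48.

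FABP3, the heart-type binding protein, was the most abundant of this group per kilobase of exon, and its groups overlapped. FABP3 had 1.65, 1.15 and 0.886 CPM in siYAP libraries and 1.68, 1.53 and 1.56 CPM in siTAZ libraries, against 2.002, 1.32 and 1.13 CPM in siNT libraries. It was called in none of the comparisons (adjusted p = 0.546 in siYAP, 0.872 in siTAZ and 0.399 in siTAZ against siYAP). FABP5, the epidermal-type protein, had 6 to 19 counts in siYAP, 3 to 14 in siTAZ and 8 to 27 in siNT libraries and was likewise not called (adjusted p = 0.255 in siYAP, 0.273 in siTAZ and 0.881 in siTAZ against siYAP). FABP4, the adipocyte-type protein, had 2 to 4 counts in siYAP libraries, 0 to 2 in siTAZ libraries and 0 in each siNT library, and was too low to test. A count of 0 allows a level of up to 0.177 CPM.

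The nuclear receptors PPARA, PPARD and PPARG each behaved differently. PPARA, the receptor of oxidation genes in liver (chr22:46150521-46243756, plus strand), had 100.2, 93.3 and 94.2 CPM in siYAP libraries and 38.6, 36.5 and 35.5 CPM in siTAZ libraries, against 43.0, 44.8 and 40.3 CPM in siNT libraries. The siYAP libraries were far above the siNT libraries, and the siTAZ libraries lay just under the siNT range. PPARA was 2.25-fold higher in siYAP (1.17 ± 0.06, adjusted p = 1.74e-26) and 1.16-fold lower in siTAZ (-0.21 ± 0.07, adjusted p = 0.00756), and siTAZ was 2.60-fold below siYAP (-1.38 ± 0.06, adjusted p = 6.91e-30). The siTAZ call was lost without the second siNT library (adjusted p = 0.0589).

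PPARD, the ubiquitous receptor and the most abundant of the 3 per kilobase of exon, had 109.7, 111 and 111 CPM in siYAP libraries and 87.2, 91.0 and 90.4 CPM in siTAZ libraries, against 110.0, 108 and 105 CPM in siNT libraries. The siTAZ libraries were separate and lower. PPARD was lower in siTAZ (log2 fold change -0.27 ± 0.05, adjusted p = 3.93e-06) and not called in siYAP (0.04, adjusted p = 0.505), and siTAZ stood 1.23-fold below siYAP (adjusted p = 6.02e-08). PPARG, the receptor of adipocyte differentiation that is known to be high in quiescent stellate cells, was measured at low counts in every group. PPARG had 0.266, 0.417 and 0.236 CPM in siYAP libraries and 0.595, 1.09 and 1.04 CPM in siTAZ libraries, against 1.18, 1.09 and 1.13 CPM in siNT libraries. The siYAP libraries, with 4 to 8 counts each, were the lowest. PPARG was 3.61-fold lower in siYAP (-1.85 ± 0.53, adjusted p = 0.00168) and not called in siTAZ (-0.32 ± 0.46, adjusted p = 0.638), and siTAZ stood 2.89-fold above siYAP (adjusted p = 0.0108). Per kilobase of exon PPARA stood at 0.293 ± 0.0133 times PPARD in siYAP, 0.139 ± 0.00890 times in siTAZ and 0.134 ± 0.00518 times in siNT libraries (SD, n = 3 each).

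**Figure D4:**
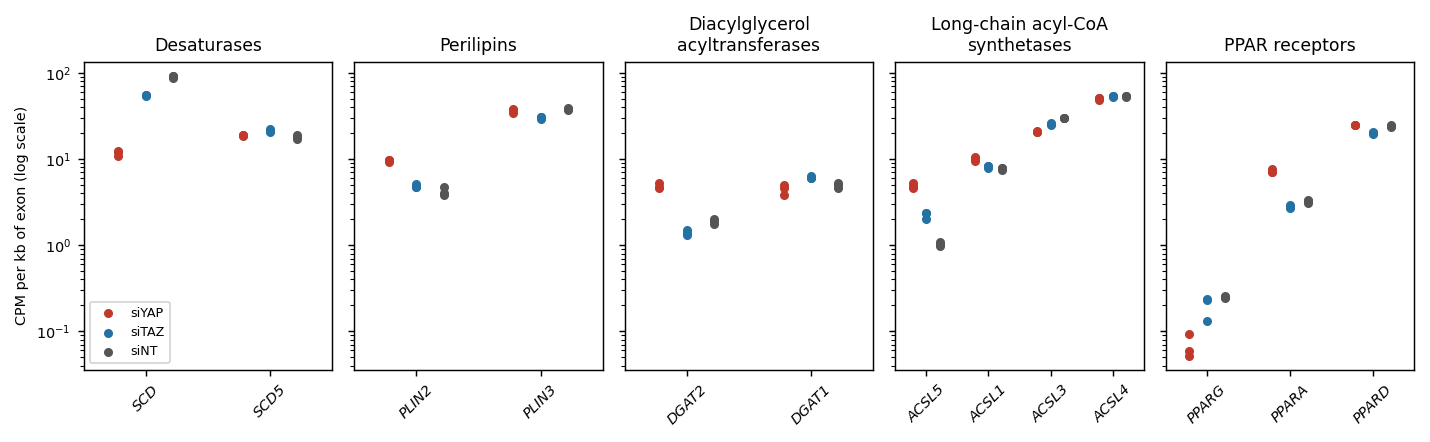
Level per kilobase of exon (y axis, CPM per kb, log scale) of the members of 5 gene families (x axis) in each library of siYAP, siTAZ and siNT, from left to right within a gene. SCD drops below SCD5 in siYAP, where the SCD to SCD5 ratio is 0.624, DGAT2 reaches DGAT1 in siYAP with a ratio of 1.10, and PPARG lies far below the other PPAR receptors in every group.

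Setting the knockdowns directly against each other, 20 of the 37 tested members were higher and 14 lower in siTAZ than in siYAP cells, 91.9% of those tested, where 66.2% of all genes were called, 33% higher and 33.2% lower. The median log2 fold change was 0.12, beside -0.01 for all genes. At a change of at least 1.5-fold 11 members were called, where 33.9% of all genes were. All 12 synthesis genes were called, 8 higher and 4 lower in siTAZ (median 0.19), and all 3 lipases were higher (median 0.48). Of the storage genes 3 were higher and 3 lower, and of the oxidation genes 3 were higher and 2 lower. By size, SCD (4.64-fold higher in siTAZ) and DGAT2 (3.48-fold lower) led the 2 directions. The libraries of siTAZ and siYAP did not overlap for 35 of the 38 members. The same count was not made over all genes, so it is not read as a trait of these members.

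Another 106 genes of the same pathways were listed by role, and 88 were expressed well enough to be tested. In siYAP 29 were called higher and 27 lower, 63.6% of those tested beside the 67.1% of all genes, with a median of -0.04. In siTAZ 18 were higher and 13 lower, 35.2% beside 34.6%, with a median of 0.03. Neither share stood away from that of all genes.

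Among the other synthesis and desaturation genes, 4 of 14 tested were higher and 6 lower in siYAP. ACSS2, which makes acetyl-CoA from acetate, had 17.1, 20.7 and 18.4 CPM in siYAP libraries and 49.9, 46.1 and 48.5 CPM in siTAZ libraries, against 48.8, 48.4 and 47.6 CPM in siNT libraries. Only siYAP stood apart, 2.57-fold below siNT (adjusted p = 2.14e-24), and siTAZ stood 2.57-fold above siYAP (adjusted p = 2.13e-24). ELOVL2, an elongase of very long polyunsaturated chains, was 2.16-fold lower in siYAP (adjusted p = 1.32e-18) and 1.44-fold lower in siTAZ (adjusted p = 1.71e-07). ELOVL7 was 1.85-fold higher in siTAZ (adjusted p = 1.95e-10), and HACD1, a dehydratase of the elongation cycle, was 1.37-fold higher in siTAZ (adjusted p = 1.97e-05) and 2.38-fold higher in siTAZ than in siYAP (adjusted p = 4.63e-19). ELOVL4 was 1.97-fold lower in siTAZ than in siYAP (adjusted p = 2.11e-13). SREBF1, which encodes the SREBP that drives fatty acid synthesis genes, was 1.30-fold lower in siYAP (-0.38, adjusted p = 5.66e-07) and not called in siTAZ (-0.08, adjusted p = 0.388). SREBF2, whose product drives mainly cholesterol genes, was higher in both, 1.09-fold in siYAP (adjusted p = 0.0031) and 1.12-fold in siTAZ (adjusted p = 0.000211). The proteins that retain SREBP in the endoplasmic reticulum are INSIG1 and INSIG2. INSIG2 was 1.71-fold higher in siYAP (adjusted p = 4.82e-13), and INSIG1 was 1.87-fold lower in siTAZ than in siYAP (adjusted p = 2.1e-27).

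Beside the 3 lipases, 8 other lipolysis genes were tested. In siYAP 3 of these were called higher and 2 lower, and in siTAZ 3 were higher and 1 lower. G0S2, an inhibitor of the PNPLA2 product, had 102, 101 and 103 CPM in siYAP libraries and 40.5, 38.1 and 33.5 CPM in siTAZ libraries, against 51.9, 53.3 and 53.3 CPM in siNT libraries. As for DGAT2 and PPARA, siNT lay between the knockdowns with no overlap. G0S2 was 1.93-fold higher in siYAP (adjusted p = 8.7e-23) and 1.41-fold lower in siTAZ (adjusted p = 1.56e-09), with siTAZ 2.73-fold below siYAP (adjusted p = 2.92e-31). ABHD6, a monoglyceride lipase, was 1.75-fold higher in siYAP (adjusted p = 2.68e-11), where MGLL was lower. Of the secreted regulators, named here after their values were seen, ANGPTL4 inhibits lipoprotein lipase. Its log2 fold change of 5.34 in siYAP was the highest of the other pathway genes tested. In siTAZ ANGPTL4 was 2.09-fold higher at 15 to 27 counts (adjusted p = 0.0181) and stood 19.4-fold below siYAP (adjusted p = 2.77e-28). Its level in siNT was therefore lower still, so both fold changes over siNT rest on a low baseline. LPL, lipoprotein lipase itself and also one of the adipocyte markers, had 1.17, 1.199 and 0.945 CPM in siYAP libraries and 3.62, 3.65 and 3.52 CPM in siTAZ libraries, against 1.18, 0.747 and 0.961 CPM in siNT libraries, and was 3.72-fold higher in siTAZ (adjusted p = 2.91e-06).

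Of the other oxidation genes 6 of 24 were higher and 9 lower in siYAP, and 6 were higher and 3 lower in siTAZ. ACADSB, a dehydrogenase of short branched chains, was 2.92-fold lower in siYAP (adjusted p = 1.62e-14) and not called in siTAZ (-0.15, adjusted p = 0.392). For ACADSB siTAZ stood 2.62-fold above siYAP (adjusted p = 1.03e-12). SLC25A20, the carnitine carrier that works between CPT1A and CPT2, was 1.33-fold higher in siTAZ (adjusted p = 0.00249). Of the other glycerolipid and droplet genes 7 of 17 were higher and 3 lower in siYAP. In siTAZ 2 were higher and 2 lower, among them AGPAT3, an acyltransferase of phosphatidate synthesis, at 1.43-fold lower (adjusted p = 3.51e-17).

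**Figure D5:**
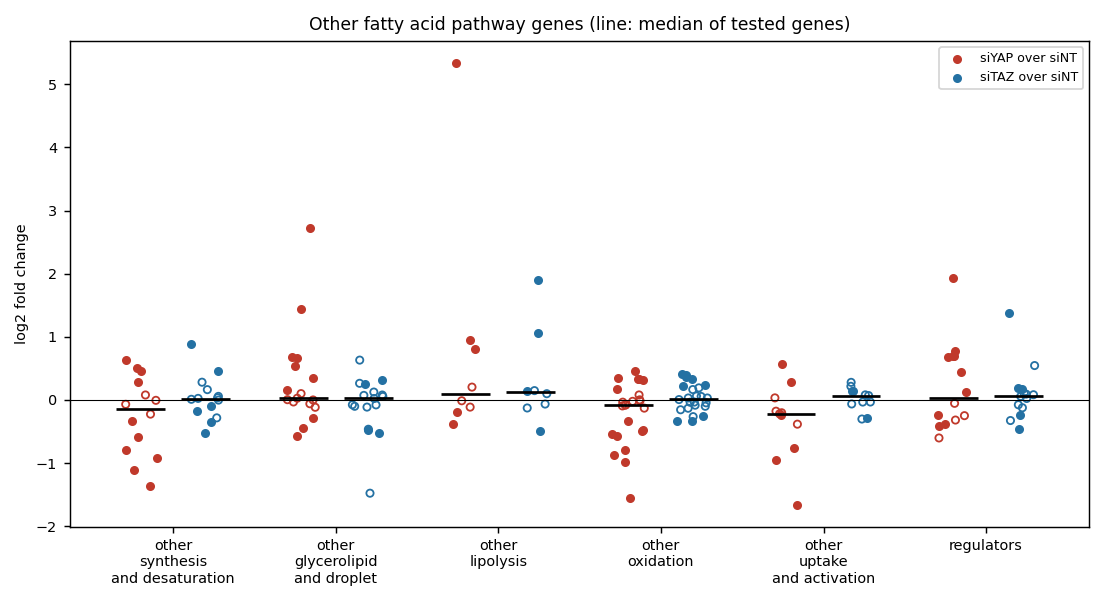
Log2 fold change (y axis) of the 88 tested other pathway genes by list (x axis), siYAP over siNT in red left of siTAZ over siNT in blue, filled for an adjusted p below 0.05, with a line at each list's median. Medians stay near 0 while single genes spread widely, most of all in siYAP. The highest point there is ANGPTL4 at 5.34, over a low siNT level.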

How the data were processed

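RNA of 9 LX2 libraries (3 each of siYAP, siTAZ and siNT) was measured by mRNA sequencing. The deposited values are whole-number counts per Ensembl gene, 1 file per library. Per the submitters' processing notes, the tools were STAR 2.5.0c and HTSeq, beside Trim Galore, Picard and SAMtools. The notes name a mouse build although the IDs are human, so the build, the annotation and the strand setting of the counting are not given in the sources used here. Whether the replicates were separate cultures is not stated beyond their being called biological, so p-values measure the spread between these libraries.

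Reads outside genes (4.73 to 7.49% of a library) and ambiguous reads (6.33 to 6.91%) were left out. Counts were scaled by TMM and tested with edgeR 4.0.16 (R 4.3.3) in 1 quasi-likelihood fit over all 9 libraries, after filterByExpr at a minimum count of 10 kept 15560 genes, and p-values were adjusted over all of them. CPM values use the TMM-scaled library sizes. Levels per kilobase use GENCODE 29 exon lengths, and promoters are those of RefSeq. DESeq2 1.42.0 and limma 3.58.1 were among the alternatives, with other scalings and filters, a replicate block and each library left out. The fit was also run on simulated counts with known changes. Far fewer genes changed there than were called here, so that run does not bear on scaling under so broad a change.

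The members and lists were chosen with earlier results of these data known. Values in every library are given for members called with a change of at least 1.5-fold, for the most abundant of each role and, chosen after their values were seen, for ELOVL5 and CPT1A; of the other pathway genes, up to 3 per direction and comparison are named by fold, provided that the groups do not overlap and the mean log2 CPM is 3 or more, with SREBF1 and SREBF2 always.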

Additional observations from a re-analysis of the deposited data

Results flagged for a closer look

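Of the 38 genes, 3 were called in opposite directions in the knockdowns, each with a tested difference between siTAZ and siYAP (edgeR quasi-likelihood test, Benjamini-Hochberg adjustment over all genes). DGAT2 was lower in siTAZ and higher in siYAP than in siNT, with a log2 fold change of siTAZ over siYAP of -1.80 ± 0.10 (SE, adjusted p = 2.78e-25). PPARA was likewise lower in siTAZ and higher in siYAP, with a difference of -1.38 ± 0.06 (adjusted p = 6.91e-30). ELOVL5 was higher in siTAZ and lower in siYAP, with a difference of 0.46 ± 0.04 (adjusted p = 6.28e-16). All 3 siTAZ libraries of DGAT2 and PPARA lay below all siNT libraries and all 3 siYAP libraries above them, and for ELOVL5 the order was the reverse. The difference between the knockdowns kept its call in every alternative run, while the siTAZ calls of PPARA and ELOVL5 against siNT did not survive leaving out some single libraries. What separates the knockdowns for these genes was not tested.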

How the results depend on the processing

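The counts of members called held within 1.5 times under all 8 alternative settings and with each library left out. With 1 library left out, siYAP against siNT gave 9 to 11 members higher and 15 to 16 lower, siTAZ against siNT 5 to 6 and 11 to 14, and siTAZ against siYAP 17 to 20 and 13 to 14. Under the other settings these counts were 10 to 13 and 15 to 16, 6 to 7 and 13, and 18 to 20 and 14 to 15. The replicate numbers did not pair the libraries (correlation of same-numbered deviations -0.03 to 0.01, and 2 of 9 libraries closest to their own number), and a replicate block gave 10434, 5413 and 10268 genes in place of 10448, 5391 and 10298 and left the member counts at 11 and 16, 6 and 13, and 20 and 14. No single-gene value that changed sign was called, either in the main fit or in the run where the sign changed. In siTAZ against siNT these were ACSL4 (0.00700 under upper-quartile scaling), CD36 (-0.00180 under limma-voom, and -0.0202 to 0.92 with 1 library left out) and FABP3 (-0.0666 to 0.37 with 1 library left out). The others were FABP5 in siTAZ against siYAP (0.0140 under the replicate block, and -0.49 to 0.58 with 1 library left out) and ACADM in siYAP against siNT (-0.0757 to 0.00115 with 1 library left out). Under upper-quartile scaling the median of the synthesis genes moved to -0.24 in siYAP and -0.0565 in siTAZ, and ACLY and ELOVL6 were called higher in siYAP (adjusted p = 0.0148 and 0.0428), PLIN2 was called higher in siTAZ (0.0337) and ACSL4 was not called in siYAP (0.0853). With 1 library left out, the median of the synthesis genes in siTAZ ran between -0.10 and -0.0583, that of the oxidation genes in siYAP between 0.0454 (without the first siNT library) and 0.12, and that of the storage genes in siYAP between -0.153 and -0.0516 (without the first siYAP library). CPT2 in siYAP was also not called without the filter on low counts (adjusted p = 0.0789) or by DESeq2 (0.0612). In siTAZ against siYAP, LPIN1 (main adjusted p = 0.0434) was not called under 4 of the 8 settings, and ACADM, FADS3 and ACSL4 lost their calls without single libraries. The cause of these shifts was not tested. Depth limits CD36, FABP3, FABP4, FABP5, PNPLA3 and PPARG most, and the limit that a count of 0 allows covers counting error only, while the standard errors of the fit include the spread between libraries.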
